A study of Mus musculus with 18 samples.

Results

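Replication-dependent histone genes encode the core histones H2A, H2B, H3 and H4 and the linker histones H1 that package newly copied DNA. They were taken by name from the total RNA count table of mouse melanoma B16 cells, as the symbols that begin with Hist1h, Hist2h, Hist3h or Hist4h and that reach 10 counts in total over the 9 total RNA libraries. Of 70 such symbols, 59 met the count minimum, among 46068 named genes in the table, of which 20211 reached 10 counts. The 59 genes comprised 5 H1, 16 H2A, 15 H2B, 12 H3 and 11 H4 genes. By locus, 47 belonged to Hist1 on chromosome 13, 10 to Hist2 on chromosome 3, 1 to Hist3 on chromosome 11 and 1 to Hist4 on chromosome 6. Of these genes 3 (Hist1h2aj, Hist1h2al and Hist3h2bb-ps) are annotated as pseudogenes, and Hist1h1t and Hist1h2ba encode testis-type histones. Of the 11 symbols left out, 3 (Hist1h1b, Hist1h2br and Hist3h2a) had no count in any library. Histone genes of a class are near-identical copies, and how reads that match several copies were counted is not given in the sources used here, so the split of counts between single genes of a class is uncertain.

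The study set B16 cells labelled control against B16 cells treated with all-trans retinoic acid (ATRA), a vitamin A derivative that activates the retinoic acid receptors, and B16 cells treated with sodium 4-phenylbutanoate (PB-4), known as an inhibitor of histone deacetylases. Each group had 3 total RNA libraries, which the labels number 1 to 3. Every label names the B16 cell line but gives the source as skin tissue, and neither the dose nor the duration of treatment of the sequenced cultures is given in the sources used here. The libraries come from 1 cell line and are not stated to be separate cultures, so the p-values below measure only the spread between these libraries.

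Most of these genes are active in S phase, when histones are needed in step with DNA synthesis. Their mRNAs usually lack introns and a poly(A) tail. They end in a stem-loop that the protein SLBP binds, and the U7 small nuclear ribonucleoprotein directs the cut that forms this end. When DNA synthesis stops, histone mRNAs are degraded rapidly. The genes lie in clusters, and many H2A and H2B genes stand head to head and share the sequence between their starts. Replication-independent histone genes lie outside the clusters and make ordinary polyadenylated mRNAs.

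Promoter sequences of these genes were taken from RefSeq (build GRCm38.p6), which gave 51 windows of 300 bases for 50 of the 59 genes, each from 250 bases before to 50 bases after a start. Both strands were searched for the octamer ATTTGCAT, the CCAAT box (CCAAT), the TATA box (TATAAA) and the H1 box AAACACA, none of which contains another. The octamer was in 11 of the 51 windows (21.6%), against 1.74% of all 32851 promoter windows. It was in 5 of 13 H2A and 6 of 13 H2B windows and in no H1, H3 or H4 window. Windows of head-to-head genes overlap, so the same site can count for an H2A and an H2B gene. This held for the octamer of Hist1h2ae and Hist1h2bg and for that of Hist1h2ah and Hist1h2bk. The CCAAT box was in 44 windows (86.3%, against 37.4% of all), which were all H1, H2A, H2B and H3 windows but only 3 of the 10 H4 windows. The TATA box was in 28 windows (54.9%, against 13.6% of all). The H1 box was in 6 windows (11.8%, against 7.18% of all), of which 4 were H1 genes. Such matches describe the letters in the window and no more.

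The promoters of 8 genes that the results below turn on are shown as the 120 bases just before the start, on the strand of the gene, with the motif letters in capitals, so that the class differences in these letters can be read. Of the linker histone genes, the Hist1h1c window is chr13:23738687-23738806 on the plus strand and the Hist1h1e window is chr13:23622559-23622678 on the minus strand. Of the H2B genes, the Hist1h2bb window is chr13:23746614-23746733 on the plus strand and the Hist2h2bb window is chr3:96269580-96269699 on the plus strand. The Hist2h2ac window (H2A) is chr3:96220881-96221000 on the minus strand, and the Hist1h3c window (H3) is chr13:23745522-23745641 on the minus strand. Of the H4 genes, the Hist1h4d window is chr13:23581448-23581567 on the plus strand and the Hist4h4 window, in which no motif was found, is chr6:136804432-136804551 on the minus strand.
Hist1h1c: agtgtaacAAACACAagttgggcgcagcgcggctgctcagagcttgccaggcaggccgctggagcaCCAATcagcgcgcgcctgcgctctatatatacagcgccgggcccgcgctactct
Hist1h1e: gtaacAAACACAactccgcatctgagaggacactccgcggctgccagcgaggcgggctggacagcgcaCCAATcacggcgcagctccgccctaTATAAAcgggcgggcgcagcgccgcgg
Hist1h2bb: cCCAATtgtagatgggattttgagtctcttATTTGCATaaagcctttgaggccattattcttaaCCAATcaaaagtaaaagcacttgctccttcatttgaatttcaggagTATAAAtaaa
Hist2h2bb: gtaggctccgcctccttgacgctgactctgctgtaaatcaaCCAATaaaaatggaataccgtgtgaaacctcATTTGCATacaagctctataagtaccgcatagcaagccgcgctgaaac
Hist2h2ac: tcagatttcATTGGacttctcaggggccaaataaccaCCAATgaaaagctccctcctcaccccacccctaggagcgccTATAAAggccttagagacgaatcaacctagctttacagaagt
Hist1h3c: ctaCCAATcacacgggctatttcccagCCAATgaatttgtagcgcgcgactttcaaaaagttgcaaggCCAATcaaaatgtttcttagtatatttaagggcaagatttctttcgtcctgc
Hist1h4d: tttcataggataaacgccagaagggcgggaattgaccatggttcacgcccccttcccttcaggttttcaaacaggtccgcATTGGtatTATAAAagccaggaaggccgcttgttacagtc
Hist4h4: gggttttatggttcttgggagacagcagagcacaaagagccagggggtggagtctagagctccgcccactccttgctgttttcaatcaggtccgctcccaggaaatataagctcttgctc

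Among the 50 genes with a window, which gives the strand, 5 head-to-head pairs with starts within 500 bases of each other were found. The 9 genes without a window were not searched for pairs, so this list of pairs is not complete. The pair of Hist1h2bg, an H2B gene, and Hist1h2ae, an H2A gene, had 180 bases between the starts, and their windows overlap on opposite strands, at chr13:23571280-23571399 on the plus strand and chr13:23571221-23571340 on the minus strand. They are shown because both genes read away from the same stretch.
Hist1h2bg: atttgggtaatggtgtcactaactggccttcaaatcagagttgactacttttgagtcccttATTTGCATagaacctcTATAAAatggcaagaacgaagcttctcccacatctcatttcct
Hist1h2ae: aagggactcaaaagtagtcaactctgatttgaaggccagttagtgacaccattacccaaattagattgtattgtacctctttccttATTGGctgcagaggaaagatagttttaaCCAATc
The mean level over the 9 libraries was 143.6 CPM (counts scaled to library size by TMM) for Hist1h2bg and 45.7 CPM for Hist1h2ae, a ratio of 3.15. In the other 4 pairs found, all on chromosome 13, the ratio of mean CPM of the higher to the lower gene ran from 6.58 for Hist1h2ad and Hist1h2bf to 84.6 for Hist1h2bq and Hist1h2ao.

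The libraries held 12632669 to 36176443 counts, and replicate 3 of each group was the shallowest, with 12632669 to 17006638. Replicate 3 of every group also stood apart in the histone genes. Summed over the 59 genes, the level was 4993, 5033 and 12530 CPM in control replicates 1, 2 and 3. In the ATRA group it was 2535, 2139 and 12980 CPM, and in the PB-4 group 1845, 2173 and 9634 CPM. Replicate 3 was thus 2.50, 5.55 and 4.80 times the mean of replicates 1 and 2 in the control, ATRA and PB-4 groups, whereas replicate 2 was 1.01, 0.844 and 1.18 times replicate 1. Histone genes took 0.193 to 1.21% of all counts of a library. The counts of called histone genes and their median fold changes below are therefore given with all libraries and with replicates 1 and 2 only. The fits with replicates 1 and 2 only hold 2 libraries per group and leave out the replicate that stood apart in these same genes. Their p-values measure only the spread between those 2 libraries of a group. Counts for other gene lists are given without and with the replicate number as a block.

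**Figure D1:**
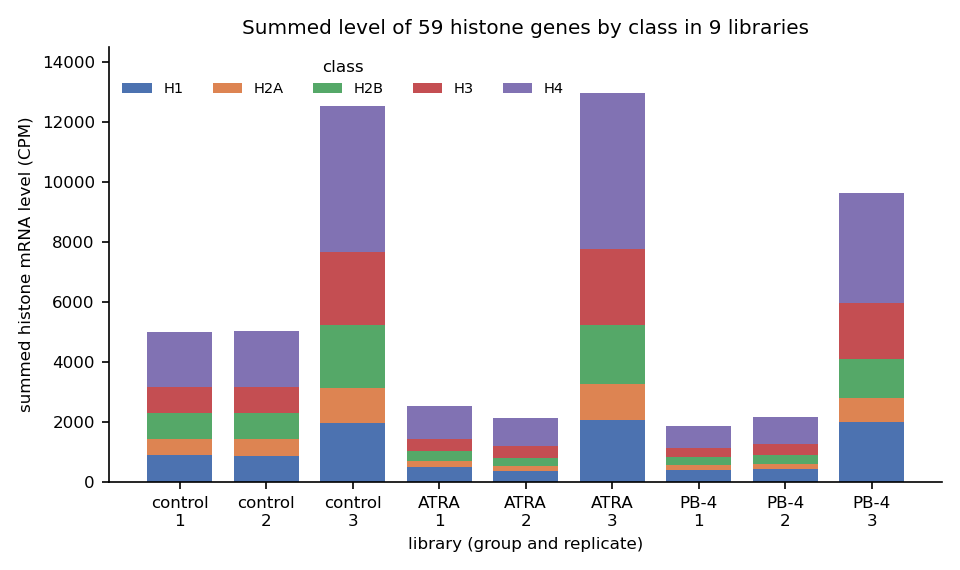
Summed level of the histone genes in CPM (TMM-scaled) in each of the 9 libraries, stacked by class. The bar of replicate 3 is the highest of its group in all 3 groups (12530, 12980 and 9634 CPM), and within replicates 1 and 2 the ATRA and PB-4 bars (1845 to 2535 CPM) lie below the control bars (4993 and 5033 CPM).

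With all libraries the groups overlapped, at 7518 ± 4338 CPM in the control, 5884 ± 6147 in the ATRA and 4551 ± 4405 in the PB-4 group (mean ± SD, n = 3). Set against the control of the same number, 5 of the 6 treated sums were lower. ATRA replicates 1 and 2 were 49.2% and 57.5% below the controls of the same number, and ATRA replicate 3 was 0.05 above its control on the log2 scale. PB-4 replicates 1, 2 and 3 were 63.0%, 56.8% and 23.1% below the controls of the same number. Scaled by library totals in place of TMM, PB-4 replicate 3 was 8.99% below its control. A lower sum in a bulk library can come from fewer cells that make these mRNAs or from less mRNA per cell, and these cannot be told apart here.

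The division of the histone signal among classes was similar in all libraries, with some shifts by group. H4 genes held 36.6 to 38.9% of the summed CPM in the control, 40.2 to 44.8% in the ATRA and 38.2 to 42.3% in the PB-4 libraries. H2B genes held 16.8 to 17.2% in the control, 12.7 to 15.2% in the ATRA and 13.3 to 14.1% in the PB-4 libraries, so that no treated library reached a control. H2A shares also lay apart, at 9.23 to 10.8% in the control, 8.52 to 9.11% in the ATRA and 8.33 to 8.95% in the PB-4 libraries. The linker histones H1 held 15.8 to 18.1% in the control, 15.9 to 18.9% in the ATRA and 19.2 to 20.9% in the PB-4 libraries. H3 genes held 16.2 to 19.5% over all 9 libraries. These shares are of CPM, without scaling for gene length.

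Among single genes, 21 had a mean of at least 100 CPM over the 9 libraries, 13 had 10 to 100, 14 had 1 to 10 and 11 were below 1 CPM. The 10 highest genes made up 56.2 to 65.3% of the summed CPM. The highest was Hist1h4d, an H4 gene, with a mean of 493.4 CPM over the 9 libraries. Divided by gene length, Hist2h4 was the highest in the control, with a mean of 1588 CPM per kb, followed by Hist1h4d (1397), Hist1h4h (996.6) and Hist4h4 (865.2), which are all H4 genes and encode the same protein. Before division by length, the SD of each of these over the 3 controls was 154.6 to 379.8 CPM around means of 379.8 to 609.9 CPM. This spread between libraries includes the higher level of replicate 3 that these genes share, and differences between neighbours in this order were not tested.

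**Figure D2:**
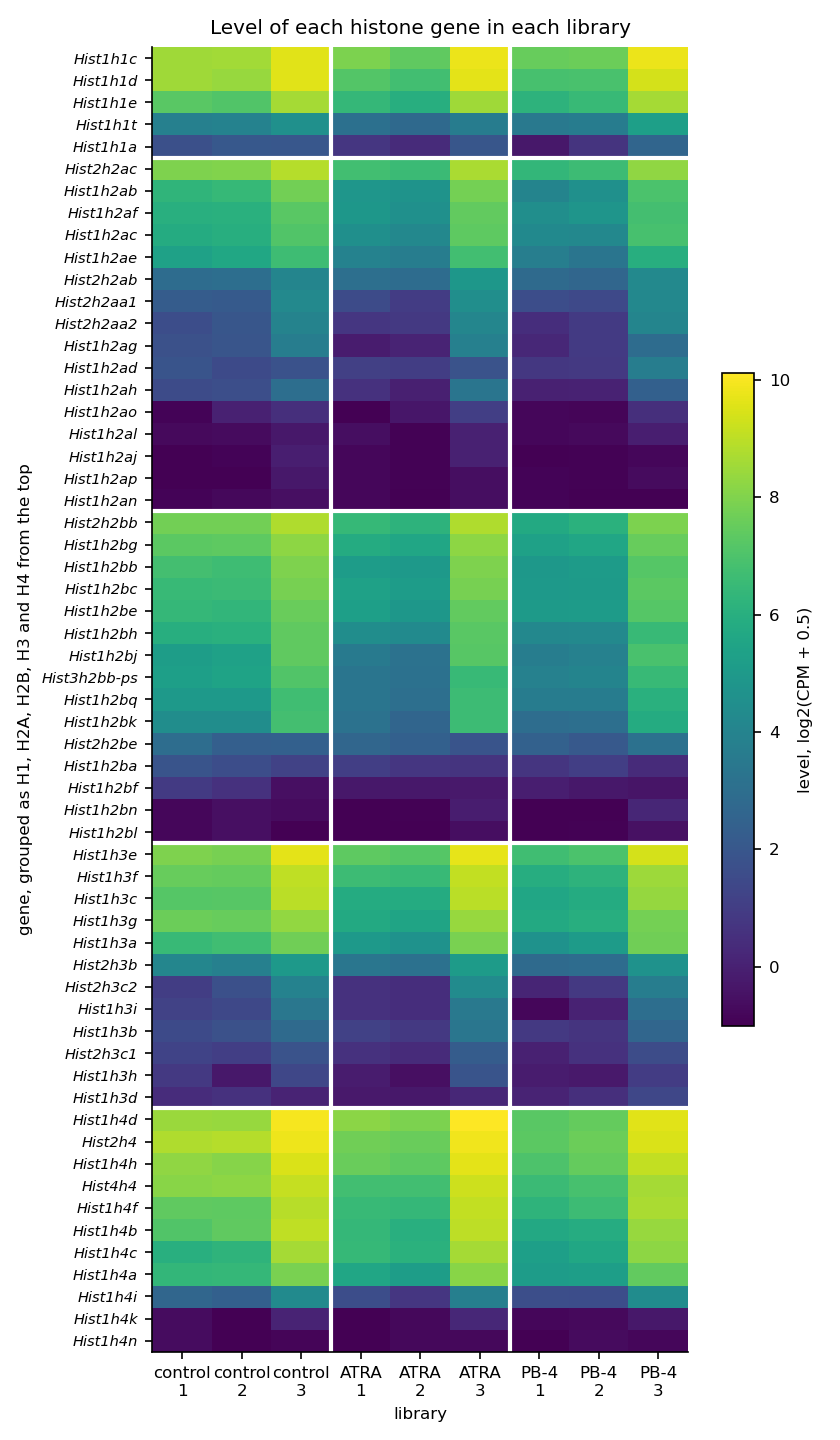
Level of each histone gene in each library, as log2(CPM + 0.5), with genes ordered by class and by mean level. Columns of replicate 3 are brighter (higher) than those of replicates 1 and 2 in every class, and 51 of the 59 genes were higher in replicate 3 of all 3 groups.

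The higher level of replicate 3 was seen in every class. The median over the 59 genes of the difference between replicate 3 and the mean of replicates 1 and 2, on the log2(CPM + 0.5) scale, was 1.18 in the control, 2.44 in the ATRA and 2.23 in the PB-4 group. The difference of replicate 2 from replicate 1 was 0.04, -0.21 and 0.15. By class the control median ran from 1.05 (H1) to 1.48 (H4). Of the 59 genes, 51 were higher in replicate 3 of all 3 groups, against 25.1% of all 20211 genes. The only gene lower in all 3 was Hist1h2ba, a testis-type H2B, and the 7 others (Hist1h2an, Hist1h2bf, Hist1h2bl, Hist1h2bn, Hist1h3d, Hist1h4n and Hist2h2be) differed in direction.

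Other RNA classes also moved with replicate 3. The median difference of 20 other RNAs without a poly(A) tail, such as the RNA component of RNase MRP, was 0.80, 1.11 and 0.77 in the control, ATRA and PB-4 groups. Of these 20, 13 were higher in replicate 3 of all 3 groups (25.1% of all genes) and 4 were lower in all 3 (31.1% of all genes). The median of 34 ribosomal protein mRNAs was 1.07, 0.47 and 0.96. The 13 mitochondrially encoded mRNAs (-1.05, -0.53 and -1.23) and 3 nuclear lncRNAs (-2.33, -1.36 and -1.11) were lower. Genes of S phase (26) were 0.48, 1.48 and 0.47 higher, and 10 replication-independent histone genes were 0.55, 0.70 and 0.84 higher. The 4 histone genes taken to make polyadenylated transcripts as well (Hist1h1c, Hist1h2bc, Hist2h2be and Hist4h4) had medians of 0.99, 2.33 and 2.05. Whether the libraries were made from poly(A) RNA or from RNA freed of ribosomal RNA is not given in the sources used here, and the part of library preparation, depth or cell cycle in the difference was not tested.

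**Figure D3:**
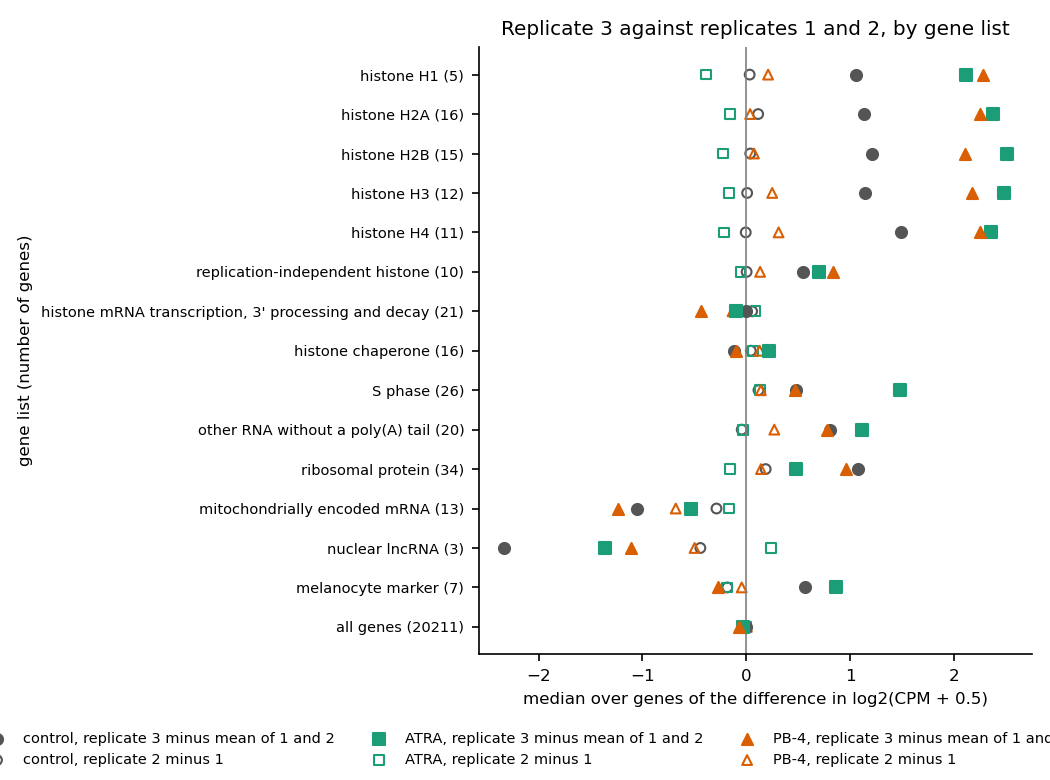
Median difference in log2(CPM + 0.5) between replicate 3 and the mean of replicates 1 and 2 (filled) and between replicates 2 and 1 (open), by gene list and group, with the number of genes of each list in brackets. The filled points of the 5 histone classes lie between 1.05 and 2.51, and those of the mitochondrially encoded mRNAs and nuclear lncRNAs lie below 0.

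For ATRA against control, no histone gene passed the test with all 6 libraries, but most genes were lower in replicates 1 and 2. By edgeR's quasi-likelihood test, with Benjamini-Hochberg adjustment over all genes and a threshold of 0.05, 0 of 58 genes were called, where 1.07% of all 17911 genes were. At an unadjusted p under 0.05 there was 1 gene, Hist1h1t, and DESeq2 called 0. The median log2 fold change was -0.40, against -0.00 over all genes, and 51 of the 58 were negative. Without ATRA replicate 3 the test called 8 of 55 genes, all lower, against 2.28% of all genes that fell, and without control replicate 3 the median turned to 0.22. With the replicate number as a block 4 of 58 genes fell, against 10.8% of all genes. With replicates 1 and 2 only, 41 of 52 genes fell and 0 rose, against 19.2% of all genes that fell and 17.8% that rose, and the median was -1.28. Voom with quality weights, which gives discordant libraries less weight, called 30 of 58 as fallen, against 15.6% of all genes.

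**Figure D4:**
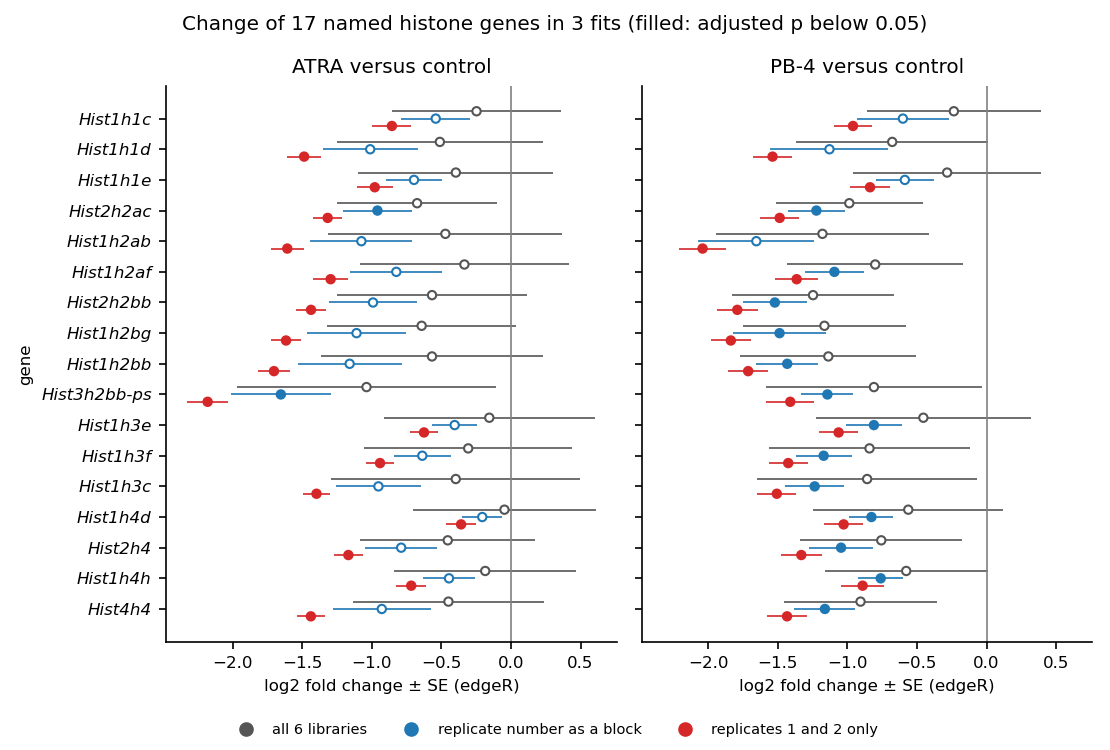
Log2 fold change ± SE of 17 histone genes (the 3 with the highest mean CPM in each class, Hist3h2bb-ps and Hist4h4) for ATRA and PB-4 against control, with all 6 libraries (grey), with the replicate block (blue) and with replicates 1 and 2 only (red), filled where the adjusted p was below 0.05. No grey point is filled, 2 (ATRA) and 13 (PB-4) blue points are filled, all 17 red points of both panels are filled, and all points lie below 0.

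The 4 genes that fell with ATRA under the block also fell with replicates 1 and 2 only. Hist1h1t, the testis-type linker histone, was at 13.9, 14.9 and 23.7 CPM in the control and 8.20, 6.50 and 12.3 CPM in the ATRA libraries, so all ATRA libraries lay below all controls. It fell by 0.98 ± 0.18 (log2 fold change ± SE, adjusted p = 0.00965 with the block). Hist2h2ac, an H2A gene of the Hist2 cluster, was at 251.2, 256.6 and 473.3 CPM in the control and 107.3, 95.6 and 415 CPM in the ATRA libraries. It was lower in every ATRA library than in the control of the same number, but ATRA replicate 3 lay above control replicates 1 and 2, and it fell by 0.96 ± 0.25 (adjusted p = 0.0433 with the block). The other genes were Hist3h2bb-ps, annotated as a pseudogene, which fell by 1.65 ± 0.36 (adjusted p = 0.0334 with the block), and Hist1h4i, an H4 gene, which fell by 1.20 ± 0.29 (adjusted p = 0.0259 with the block). Hist3h2bb-ps was at 37.9, 43.2 and 134.9 CPM in the control and at 9.51, 8.32 and 88.7 CPM in the ATRA libraries. Hist1h4i was at 5.91, 4.75 and 19.4 CPM in the control and at 2.58, 1.22 and 13.4 CPM in the ATRA libraries, lower in each pair.

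Groups that did not overlap were rare. In the ATRA comparison 2 of 58 genes had all 3 ATRA libraries below all 3 controls, Hist1h1t and Hist1h2ba, against 10.6% of all genes. Hist1h2ba was at 3.24, 2.57 and 1.79 CPM in the control and 1.60, 1.22 and 1.11 CPM in the ATRA libraries, and in it replicate 3 was the lowest library of each group. In same-numbered pairs, 18 of 58 genes were lower with ATRA in all 3, against 25.7% of all genes, and 0 were higher in all 3, against 25.9%. The share lower in all 3 was thus 31.0%, near that of all genes. By class these were 3 of 5 H1, 1 of 16 H2A, 11 of 15 H2B, 1 of 12 H3 and 2 of 10 H4 genes, and the classes were not tested against each other. In replicate 3 these 11 H2B genes differed by -0.003 (Hist1h2bc) to -0.60 (Hist3h2bb-ps), and the median of all 15 was -0.11. The median log2 difference over the 58 genes was -0.87 in replicate 1, -1.18 in replicate 2 and 0.09 in replicate 3.

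With replicates 1 and 2 only, which leaves 2 libraries per group, genes of every class fell with ATRA. The difference between classes was not tested. All 5 H1 genes fell, as did 9 of 13 H2A, 12 of 13 H2B, 7 of 12 H3 and 8 of 9 H4 genes, against 19.2% of all genes. Among linker histones, Hist1h1d was at 366.1 and 338.5 CPM in control replicates 1 and 2 and at 142.1 and 108.3 CPM in ATRA replicates 1 and 2, and it fell by 1.49 ± 0.12 (adjusted p = 2.4e-08). The sum of the H2B genes was 62.5% and 68.5% lower in ATRA replicates 1 and 2 than in their controls, while that of the H4 genes was 39.8% and 49.0% lower. Hist1h2bb, an H2B gene whose window above holds the octamer, was at 111.8 and 102.1 CPM in these controls and at 35.0 and 30.4 CPM with ATRA, and fell by 1.70 ± 0.11 (adjusted p = 1.5e-09). Hist1h4d, the H4 gene with the highest mean CPM, was at 343 and 341.5 CPM in the controls and at 286.7 and 244.8 CPM with ATRA, and fell by 0.36 ± 0.11 (adjusted p = 0.0124). Hist1h4c, another H4 gene, did not pass: it was at 64.4 and 74.3 CPM in the controls and at 85.8 and 68.2 CPM with ATRA (log2 fold change 0.16 ± 0.12, adjusted p = 0.346). In replicate 3 the values of control and ATRA were close, with Hist1h2bb at 250.8 CPM in the control and 250.2 CPM with ATRA, and Hist1h4d at 1000 and 1108 CPM. With all 6 libraries the adjusted p of edgeR's quasi-likelihood test was 0.794 for Hist1h1d, 0.787 for Hist1h2bb and 0.98 for Hist1h4d.

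For PB-4 against control, the histone genes were again not called with all libraries, while 30 fell once the replicate number was a block. This comparison shares its 3 control libraries with that of ATRA. The edgeR test without the block called 0 of 57 genes, where 16.1% of all 19450 genes were called. At an unadjusted p under 0.05 there was 1 gene, Hist1h2ba, and DESeq2 called 0. The median log2 fold change was -0.68, against 0.03 over all genes, and 50 of 57 were negative. Without PB-4 replicate 3 the test called 25 of 55 genes, all lower, against 3.37% of all genes that fell, and without control replicate 3 the median was -0.07. With the block, 30 of 57 genes fell and 0 rose, against 21.3% of all genes that fell and 23.1% that rose. With replicates 1 and 2 only, 39 of 53 genes fell and 0 rose, against 16.8% of all genes that fell and 22.9% that rose, with a median of -1.36. Of the 30 genes under the block, 28 were also called there, the exceptions being Hist1h2ba and Hist2h3c2. Voom with quality weights called 37 of 57 as fallen, against 21.1% of all genes.

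Under the block, the genes that fell with PB-4 were 11 of 15 H2B, 8 of 11 H4, 6 of 12 H3, 5 of 14 H2A and 0 of 5 H1 genes, against 21.3% of all genes. Among H2B genes, Hist1h2bk was at 21.3, 21.1 and 109 CPM in the control and 7.27, 7.79 and 56.4 CPM in the PB-4 libraries, lower in every pair, and fell by 1.30 ± 0.15 (adjusted p = 5.2e-07 with the block). Hist2h2bb was at 216.4, 214.3 and 447.5 CPM in the control and 53.7, 69.0 and 241.7 CPM with PB-4, and fell by 1.52 ± 0.23 (adjusted p = 0.00158 with the block). Its PB-4 replicate 3 lay above control replicates 1 and 2. Hist1h2bg was at 157.7, 161.7 and 300.9 CPM in the control and 41.0, 47.1 and 184.5 CPM with PB-4, and fell by 1.49 ± 0.34 (adjusted p = 0.0334 with the block).

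Hist1h4d, the H4 gene with the highest mean CPM, was at 343, 341.5 and 1000 CPM in the control and 153.8, 177.8 and 785.1 CPM with PB-4, and fell by 0.83 ± 0.16 (adjusted p = 6.3e-04 with the block). Hist2h4 was at 438.4, 466.7 and 924.7 CPM in the control and 157.4, 197.7 and 710.8 CPM with PB-4, and fell by 1.05 ± 0.23 (adjusted p = 0.0087 with the block). Hist4h4, the only gene of its locus, was at 282.8, 298.6 and 558.1 CPM in the control and 94.8, 117.6 and 387.3 CPM with PB-4, and fell by 1.16 ± 0.22 (adjusted p = 0.00358 with the block). Each was lower with PB-4 in all 3 pairs. Hist1h4c, which did not pass with ATRA, was at 64.4, 74.3 and 393.6 CPM in the control and 38.0, 49.3 and 301.3 CPM with PB-4, and fell by 0.59 ± 0.12 (adjusted p = 4.1e-04 with the block).

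Among H3 and H2A genes, Hist1h3c was at 146.9, 151.5 and 501.3 CPM in the control and 47.5, 56.1 and 326.9 CPM with PB-4, and fell by 1.23 ± 0.21 (adjusted p = 0.00194 with the block). Hist1h3f was at 183.4, 179.6 and 533.6 CPM in the control and 60.9, 72.5 and 356.3 CPM with PB-4, and fell by 1.17 ± 0.20 (adjusted p = 0.00145 with the block). Both H3 genes were lower in all 3 pairs. Hist2h2ac was at 81.9, 96.9 and 309.9 CPM with PB-4, below each same-numbered control, and fell by 1.22 ± 0.21 (adjusted p = 0.00148 with the block). Hist1h2ab, also H2A, was at 76.8, 86.4 and 217.4 CPM in the control and 15.9, 23.1 and 125.6 CPM with PB-4, and did not pass with the block (-1.65 ± 0.42, adjusted p = 0.0608) but fell by 2.04 ± 0.17 with replicates 1 and 2 only (adjusted p = 1.1e-09).

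The summed linker histone level of PB-4 replicate 3 was close to that of its control. Hist1h1c was at 369.1, 377.2 and 772.9 CPM in the control and 185.3, 193.6 and 888.9 CPM with PB-4, so replicates 1 and 2 were lower and replicate 3 was higher than its control. Hist1h1e was at 153.7, 136.7 and 390 CPM in the control and 72.1, 88.1 and 387.5 CPM with PB-4. Neither passed with the block (adjusted p = 0.239 and 0.0542), and with replicates 1 and 2 only they fell by 0.96 ± 0.14 (adjusted p = 4.8e-06) and by 0.84 ± 0.14 (adjusted p = 4.3e-05). Hist1h1d was at 366.1, 338.5 and 782.9 CPM in the control and 116.9, 122.6 and 671.2 CPM with PB-4, lower in every pair. It did not pass with the block (adjusted p = 0.142) and fell by 1.54 ± 0.14 with replicates 1 and 2 only (adjusted p = 3.9e-09). Summed over the 5 H1 genes, PB-4 replicate 3 differed from its control by 0.01 on the log2 scale, against -0.69 for the H2B genes, -0.53 for the H2A genes, -0.39 for the H3 genes and -0.40 for the H4 genes. The difference between these classes was not tested.

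In same-numbered pairs, 38 of 57 genes were lower with PB-4 in all 3, against 30.5% of all genes, and 0 were higher in all 3, against 34.5%. By class these were 2 of 5 H1, 8 of 14 H2A, 11 of 15 H2B, 9 of 12 H3 and 8 of 11 H4 genes. The median log2 difference was -1.26, -1.05 and -0.37 in replicates 1, 2 and 3. Hist1h2ba was the 1 gene of 57 whose PB-4 libraries (1.16, 1.58 and 0.79 CPM) all lay below its controls, against 14.5% of all genes.

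**Figure D5:**
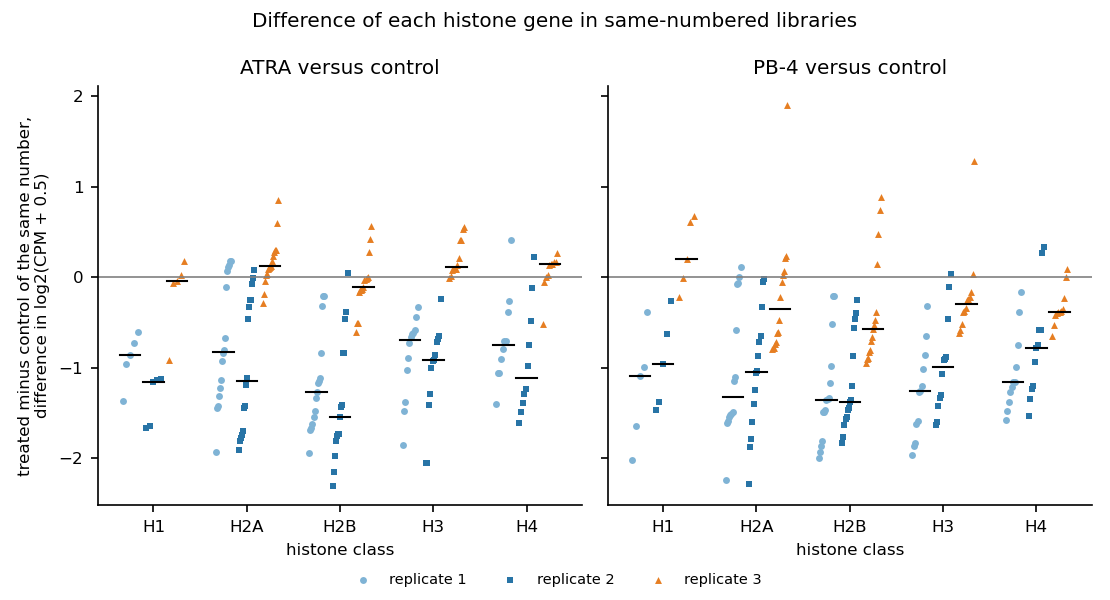
Difference in log2(CPM + 0.5) of each histone gene between a treated library and the control of the same number, by class, for ATRA and PB-4, with the class median as a line. Medians of replicates 1 and 2 are below 0 in every class, and in replicate 3 they lie near 0 for ATRA (-0.11 to 0.14) and between -0.57 and 0.20 for PB-4.

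PB-4 and ATRA were also set against each other. Without the block 0 of 56 histone genes were called, where 12.2% of all genes were. At an unadjusted p under 0.05 there was 1 gene, Hist1h1t (higher with PB-4), DESeq2 called 0, and the median log2 fold change was -0.35 against 0.04 over all genes. This median was 1.09 without ATRA replicate 3 and -1.69 without PB-4 replicate 3. With the block 6 genes fell, against 11.1% of all genes, and 2 rose, against 18.7%. With replicates 1 and 2 only 7 of 52 fell, against 16.6% of all genes, and 2 rose, against 21.1%, with a median of -0.18. Voom with quality weights called 2 as risen, against 25% of all genes, and 0 as fallen. No gene had groups that did not overlap, where 13.1% of all genes lay lower and 20.7% higher with PB-4. In same-numbered pairs 18 of 56 genes were lower in all 3, against 27.2% of all genes, and 4 were higher in all 3, against 30.4%.

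The 6 of 56 genes that fell with the block (10.7%) were near the share over all genes (11.1%), and 3 of them were H4 genes. Hist1h4d fell by 0.59 ± 0.16 (adjusted p = 0.00723 with the block), with 286.7, 244.8 and 1108 CPM in the ATRA and 153.8, 177.8 and 785.1 CPM in the PB-4 libraries. Hist1h4c fell by 0.65 ± 0.18 (adjusted p = 0.00702 with the block), from 85.8, 68.2 and 394.2 CPM with ATRA to 38.0, 49.3 and 301.3 CPM with PB-4. Both were lower with PB-4 in every pair. The others were Hist1h2ab, Hist1h3f, Hist1h4b and Hist2h2bb. The 2 genes that rose were Hist1h1t, by 0.99 ± 0.26 (adjusted p = 0.00493 with the block), and Hist3h2bb-ps, by 0.53 ± 0.19 (adjusted p = 0.0335 with the block). Hist1h1t was at 10.6, 12.3 and 38.1 CPM with PB-4, above the ATRA library of each number.

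Among genes that act on histone mRNAs or histones, several fell with PB-4 without the block. SLBP is encoded by Slbp, at 87.5, 97.6 and 81.2 CPM in the control, 46.1, 51.5 and 57.0 CPM with ATRA and 51.2, 43.4 and 33.9 CPM with PB-4. All treated libraries lay below all controls, including replicate 3, and Slbp fell by 1.07 ± 0.22 with PB-4 (adjusted p = 0.0138). With ATRA the log2 fold change was -0.79 ± 0.18 (adjusted p = 0.0809, and 0.00606 with the block). Of 21 genes of histone mRNA transcription, 3′ end processing and decay, 0 fell with ATRA, against 0.625% of all genes, and 6 fell with PB-4, against 4.59%. With the block 8 fell with ATRA, against 10.8% of all genes, and 17 fell with PB-4, against 21.3%. The PB-4 genes included Casp8ap2, which encodes the histone locus body protein FLASH (-1.45 ± 0.36, adjusted p = 0.0275), Srrt, which encodes the cap complex partner ARS2 (-1.26 ± 0.19, adjusted p = 0.0036), and Cpsf2, which encodes a subunit of the cleavage complex (-1.14 ± 0.28, adjusted p = 0.0286). Of these, Srrt passed without any 1 library, whereas Slbp (adjusted p = 0.0813), Casp8ap2 (0.105) and Cpsf2 (0.0951) did not pass without PB-4 replicate 2, nor without either of control replicates 1 and 2 (0.0538 to 0.113). Casp8ap2 also did not pass without PB-4 replicate 3 (0.0602), and Cpsf2 with library totals as the only scaling (0.0529).

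Of 16 histone chaperone genes, 1 fell with ATRA (0.625% of all genes) and 9 fell with PB-4 (4.59% of all genes) without the block. With it 10 fell with ATRA (10.8% of all genes) and 13 fell with PB-4 (21.3% of all genes). Nasp, which encodes a chaperone of H1, H3 and H4, was at 98.5, 101.2 and 88.2 CPM in the control, 32.6, 36.7 and 45.2 CPM with ATRA and 41.8, 35.8 and 26.8 CPM with PB-4. It fell by 1.34 ± 0.19 with ATRA (adjusted p = 0.0287) and by 1.48 ± 0.22 with PB-4 (adjusted p = 0.00383), with no overlap of either group with the control. With PB-4, Supt16, a subunit of the FACT complex (-1.35 ± 0.29, adjusted p = 0.0168), Hirip3 (-1.46 ± 0.29, adjusted p = 0.012) and Nap1l1, a chaperone of H2A and H2B (-1.07 ± 0.24, adjusted p = 0.0212), also fell. Nasp passed with PB-4 without any 1 library, but with ATRA its adjusted p was 0.156 and 0.185 without control replicates 1 and 2 and 0.199 and 0.159 without ATRA replicates 1 and 2. With PB-4 the adjusted p was 0.0785 for Supt16 and 0.112 for Nap1l1 without PB-4 replicate 2, 0.0644 and 0.0618 without control replicate 1, and 0.0698, 0.1 and 0.0609 for Supt16, Nap1l1 and Hirip3 without control replicate 2.

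Of 26 S phase genes, 3 fell with ATRA (0.625% of all genes) and 17 fell with PB-4 (4.59% of all genes) without the block. With it 18 fell with ATRA (10.8% of all genes), and 24 fell (21.3% of all genes) and 1 rose (23.1% of all genes) with PB-4. Ccne2, which encodes cyclin E2, fell by 2.63 ± 0.35 with ATRA (adjusted p = 0.0243) and by 2.04 ± 0.34 with PB-4 (adjusted p = 0.00644). Ccne1, which encodes cyclin E1, went the other way with PB-4, at 37.1, 44.4 and 69.8 CPM in the control and 70.9, 82.5 and 124.1 CPM with PB-4. Rrm1, a subunit of ribonucleotide reductase, fell by 1.42 ± 0.23 with ATRA (adjusted p = 0.0401) and by 1.68 ± 0.27 with PB-4 (adjusted p = 0.005). With ATRA Prim1, a DNA primase subunit, fell by 1.33 ± 0.23 (adjusted p = 0.045), and with PB-4 Mcm4, a subunit of the replicative helicase, fell by 1.84 ± 0.20 (adjusted p = 0.00129) and Pola1, the catalytic subunit of DNA polymerase alpha, by 1.68 ± 0.23 (adjusted p = 0.00255). The genes named as fallen passed with PB-4 without any 1 library. With ATRA none of them passed without control or ATRA replicate 1 or 2 (adjusted p = 0.11 to 0.239), and Prim1 missed the threshold with RLE size factors (0.0501) and with filterByExpr (0.0504). The summed S phase level was 3752, 4032 and 5003 CPM in the control, 1349, 1450 and 3910 CPM with ATRA and 1537, 1753 and 2137 CPM with PB-4. ATRA replicate 3 was thus the treated library nearest its control in this sum as in the histone genes, and the part of either in the other was not tested.

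Of 10 replication-independent histone genes tested, 0 fell with ATRA (0.625% of all genes) and 1 fell with PB-4 (4.59% of all genes) without the block. With the block 2 fell with ATRA (10.8% of all genes), and 5 fell (21.3%) and 1 rose (23.1%) with PB-4. With replicates 1 and 2 only, 5 fell and 1 rose in each of these comparisons. The shares of all genes there were 19.2% that fell and 17.8% that rose with ATRA, and 16.8% and 22.9% with PB-4. The gene that fell with PB-4 without the block was H2afy, which encodes the variant macroH2A1 (-0.86 ± 0.19, adjusted p = 0.0204), and it also fell with PB-4 against ATRA, by 1.00 ± 0.21 (adjusted p = 0.0149). In the last comparison Srrt fell by 0.91 ± 0.21 (adjusted p = 0.0233) and Supt6, a histone chaperone of transcription, fell by 0.86 ± 0.20 (adjusted p = 0.0249). Without replicate 1 or 2 of either group these calls were lost, with an adjusted p of 0.052 to 0.0906 for H2afy with PB-4 against control and of 0.0505 to 0.123 for the 3 genes with PB-4 against ATRA. H1f0 encodes H1.0, a linker histone known to accumulate in differentiated cells, and was at 110.4, 97.2 and 183.7 CPM in the control, 110.8, 88.1 and 162.1 CPM with ATRA and 134.2, 146.6 and 346 CPM with PB-4. It was higher with PB-4 in all 3 pairs and rose by 0.59 ± 0.13 with the block (adjusted p = 0.00115), against 0.69 ± 0.42 without it (adjusted p = 0.296).

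Markers of melanocytes and of other cell types were summed in the same libraries. The 7 melanocyte markers were at 12340 to 14540 CPM in the control, 7822 to 10080 CPM in the ATRA and 6598 to 8631 CPM in the PB-4 libraries. Most of this sum was Tyrp1 (mean 6218, 3089 and 2476 CPM in the control, ATRA and PB-4 groups) and Dct (3806, 3162 and 3926 CPM). Mean Mitf (405.2 and 436.1 CPM) and Sox10 (349.9 and 363.4 CPM) were also not lower with PB-4 than in the control. Without the block 0 of the 7 fell with ATRA (0.625% of all genes) and 3 with PB-4 (4.59%). With it 4 fell with ATRA (10.8%) and 4 with PB-4 (21.3%). The 7 fibroblast markers were at 19.4 to 26.4 CPM in the control, 9.36 to 20.7 CPM with ATRA and 372 to 1353 CPM with PB-4. Most of the PB-4 sum was Col1a1 (242.5, 284.9 and 1214 CPM) and Pdgfra (93.1, 87.7 and 64.9 CPM). Dcn and Lum stayed at or below 0.79 CPM in every library. Of the 7, 5 rose with PB-4 without the block (11.5% of all genes) and 5 with it (23.1% of all genes). Keratinocyte (6), immune (7) and endothelial (5) markers stayed at or below 18.7 CPM in every library, and Krt1, Cd3e and Kdr were at 0 in all 9. The part of these markers in the histone results was not tested.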

How the data were processed

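Total RNA of B16 cells was extracted with Trizol and sequenced by the authors in 9 libraries (3 control, 3 ATRA and 3 PB-4). The submitters' processing notes name HISAT2 2.0.4 and the mouse build GRCm38 (mm10), but for the counting tool, its annotation, its use of strand and its treatment of multiply mapping reads nothing was found in the labels or the methods. The deposited table held raw counts for 46095 rows, not normalized by the authors, of which 27 rows named by a date in place of a symbol (holding 0.214 to 0.260% of each library) were left out. Groups were taken from the labels.

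Counts were analysed in R 4.3.3 with edgeR 4.0.16 (TMM, robust quasi-likelihood test, a minimum of 10 counts over the libraries fitted, Benjamini-Hochberg adjustment over all genes, threshold 0.05). The standard error of a fold change was its size divided by the square root of F. Levels are CPM with TMM factors over the 9 libraries, and differences between single libraries are of log2(CPM + 0.5). DESeq2 1.42.0 and limma 3.58.1 (voom with quality weights), other scalings, other filters, a replicate block, replicates 1 and 2 only and leaving out each library were the alternatives. Same-numbered libraries of different groups deviated together from their group means (correlation 0.213 to 0.555, every pair over 0.1), so the numbers were taken to pair the libraries, although replicates 1 and 2 also correlated across numbers (0.161 to 0.296) and replicate 3 correlated negatively with both (-0.428 to -0.268). Among replicates 1 and 2, same-numbered libraries had 0.213 to 0.318. The correlations therefore do not show that replicate 1 pairs with 1 rather than with 2. No pair of libraries agreed within sampling noise. Gene spans and biotypes came from RefSeq, in which 58 of the 59 genes matched 1 gene. Of these genes 3 are annotated as pseudogenes (Hist1h2aj, Hist1h2al and Hist3h2bb-ps), and 2 (Hist1h2ba and Hist1h2be) overlap another gene. Figures were drawn with matplotlib 3.10.9. The fits were tested on simulated data.

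The histone genes and the gene lists were chosen with earlier results of these data known. Genes were named by rule: the 3 with the highest mean CPM in each class, up to 6 past the threshold per direction and comparison, all of the Hist3 and Hist4 loci, H1f0, Slbp, and up to 4 past the threshold from each other list. Hist1h1t, Hist1h2ba, Hist1h4c, Hist1h4i, Hist1h2bk, Hist1h2ae and the other genes of head-to-head pairs were named after their values were seen, as were the genes named for having fewer than 10 counts, for their direction in replicate 3 or for a call under the block. Ccne1 and the single melanocyte markers were also named after their values were seen.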

Additional observations from a re-analysis of the deposited data

How the results depend on the processing

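The number of histone genes called without the block (0, 0 and 0 for ATRA against control, PB-4 against control and PB-4 against ATRA) depended on how replicate 3 was treated. It stayed at 0 with DESeq2, RLE size factors, library totals, no filter on low counts, filterByExpr and all 9 libraries in 1 fit. It was 30, 37 and 2 with voom and quality weights, 4, 30 and 8 with the replicate block, and 41, 39 and 9 with replicates 1 and 2 only. Leaving out each library gave 0 to 8 calls for ATRA against control (8 without ATRA replicate 3), 0 to 25 for PB-4 against control (25 without PB-4 replicate 3) and 0 for PB-4 against ATRA. The median log2 fold change without ATRA replicate 1, 2 or 3 was 0.03, 0.06 and -1.85 for ATRA against control, without PB-4 replicate 3 it was -1.91 for PB-4 against control, and for PB-4 against ATRA it was 1.09 without ATRA replicate 3 and -1.69 without PB-4 replicate 3. Scaling by library totals moved the median of all genes to 0.20 for PB-4 against control and to 0.15 for PB-4 against ATRA, and the histone medians there were -0.52 and -0.24. Of 85 named results, 38 took a value of the other sign when 1 library was left out. Of 60 named histone results, 0 passed without the block, 27 with it, 47 with replicates 1 and 2 only and 33 with voom, and of 20 other named results past the threshold 14 lost it when 1 library was left out. Their log2 fold changes over the fits without 1 library ran, for ATRA against control, from -1.31 to 0.22 for Hist1h1c, -1.99 to 0.01 for Hist1h1d, -1.64 to 0.28 for Hist1h1e, -2.26 to 0.19 for Hist1h2ab, -1.85 to 0.24 for Hist1h2af, -2.25 to 0.47 for Hist1h3c, -1.47 to 0.70 for Hist1h3e, -1.68 to 0.44 for Hist1h3f, -1.09 to 0.70 for Hist1h4d, -1.32 to 0.43 for Hist1h4h, -1.61 to 0.01 for Hist2h4, -0.40 to 0.23 for H1f0, -1.22 to 1.42 for Hist1h4c and -2.40 to 0.08 for Hist1h4i. For PB-4 against control they ran from -1.40 to 0.18 for Hist1h1c, -1.48 to 0.33 for Hist1h1e, -1.89 to 0.34 for Hist1h3e, -1.74 to 0.12 for Hist1h4d, -2.72 to 0.17 for Hist1h2bk and -2.00 to 0.90 for Hist1h4c. For PB-4 against ATRA they ran from -1.22 to 1.07 for Hist1h1c, -1.59 to 1.31 for Hist1h1d, -1.15 to 1.35 for Hist1h1e, -2.27 to 1.07 for Hist1h2ab, -1.64 to 1.05 for Hist1h2af, -1.74 to 1.11 for Hist1h2bb, -1.63 to 0.83 for Hist1h2bg, -2.01 to 1.38 for Hist1h3c, -1.80 to 1.00 for Hist1h3e, -1.90 to 0.82 for Hist1h3f, -1.76 to 0.52 for Hist1h4d, -1.35 to 0.73 for Hist1h4h, -1.24 to 0.71 for Hist2h2ac, -1.73 to 0.64 for Hist2h2bb, -1.37 to 0.85 for Hist2h4, -1.26 to 2.20 for Hist3h2bb-ps, -1.43 to 0.93 for Hist4h4 and -2.10 to 0.78 for Hist1h4c. In the last comparison Hist1h1c, at 0.06 with all libraries, was -0.16 with voom, -0.01 with no filter, -0.02 with all 9 libraries in 1 fit, -0.03 with the replicate block and -0.16 with replicates 1 and 2 only. The cause of these differences was not tested. Depth limits the 11 genes below 1 CPM, and only 52, 53 and 52 of the 59 genes reached the count minimum with replicates 1 and 2.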
